A study of Mus musculus with 18 samples.

Results

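Interferon-stimulated genes were followed in regulatory T cells (TR) of mouse spleen and lymph node as 1 list of 43 genes. The rule names the genes by symbol, from general knowledge of interferon biology. The tables hold 42 of the 43 genes, of 14011 genes in the normalized table and 37991 in the count table. Psmb9 was not analysed here. All 42 passed the filter on low counts, which left 12445 genes for testing. Of the 42, 31 are mainly known as type I interferon targets and 11 as targets of interferon gamma. The gamma-type genes are Irf1, Igtp, Irgm1, Irgm2, Iigp1, Gbp2, Gbp3, Gbp7, Gbp9, Tap1 and Psmb8. The split is a convention, since many of these genes answer to both cytokines.

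The study sorted 3 TR populations from the spleen and the peripheral lymph nodes of 3 littermates on the C57BL/6 background, numbered 84, 86 and 87. Reporters for Id3 (GFP) and Foxp3 (mRFP) are carried by every mouse, so all 6 groups share both alleles, and the labels name no treatment. The label of central TR (Id3+ cTR) gives Id3+, high CD62L and low CD44, that of Id3+ effector TR (Id3+ eTR) gives Id3+, low CD62L and high CD44, and that of Id3- effector TR (Id3- eTR) gives Id3- alone. Each library holds the polyA RNA of 500 cells, and each group has 1 library from each of the 3 mice. The labels give no age or sex.

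Interferons are cytokines that induce a shared set of antiviral genes. Type I interferons act through IFNAR1 and IFNAR2, which drive a complex that holds STAT2 and IRF9 to interferon-stimulated response elements (ISRE) in promoters. Interferon gamma acts through IFNGR1 and IFNGR2, whose signal reaches gamma-activated sites (GAS) in promoters, and through IRF1. T cells at rest hold a low tonic level of many of these transcripts without infection.

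Library totals ran from 1600782 to 3153325 counts, and 13701 to 15045 genes were detected per library. Spleen Id3+ eTR of mouse 84 stood apart. It differed from the other libraries of its group by 20.6 and 20.7 times the counting variance, while all other pairs within groups stayed at or under 7.85. It was left out together with the 2 smallest libraries (spleen Id3+ cTR of mice 84 and 87), which leaves 1 spleen Id3+ cTR library. Calls lost without these 3 libraries are named, in most cases with their adjusted p. All 6 TR markers listed (Foxp3, Cd4, Cd3e, Il2ra, Ctla4 and Ikzf2) were present in 18 of 18 libraries, with Foxp3 at 237 to 374 CPM (counts scaled by edgeR to a common library size). Among markers of plasmacytoid dendritic cells, a main source of type I interferon, Siglech had counts in 3 of 18 libraries, Klk1 in 2 and Cox6a2 in 1, while Pacsin1 was present in all 18.

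The promoters of the members share letters that the rule did not use. RefSeq windows (GRCm38.p6, 250 bases before to 50 after each start site) matched 31 of the 42 members by symbol. The search used the core of an ISRE, spelled GAAA, then 2 bases of any kind, then GAAA, on both strands. It also used a GAS core, spelled TTC, then 3 bases of any kind, then GAA, which is its own reverse complement. The first was found in 19 of 31 members (61.3%) against 3.99% of 27025 genes, and the second in 11 of 31 (35.5%) against 9.55%. Both were found in 6 of 31 members (19.4%) against 0.54% of genes. Among type I members 13 of 22 held the ISRE core and 6 of 22 the GAS core. Among gamma-type members these were 6 of 9 and 5 of 9. A match is a run of letters and no measure of binding.

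The 7 stretches of 150 bases just before the start site shown here belong to some called members that hold a match there, with Isg15 and Irf1 added as plain examples of each core. Where a gene has 2 windows the first is shown. The stretch of Eif2ak2 holds no match and is not shown, as its GAS and ISRE cores start at -178 and 18 from the start site. Usp18 and Oas2 had no window. Capitals mark the matched cores, where overlapping matches run together, and every line reads 5′ to 3′ on the strand of the gene.
Apol9a, chr15:77411081-77411230 (minus strand): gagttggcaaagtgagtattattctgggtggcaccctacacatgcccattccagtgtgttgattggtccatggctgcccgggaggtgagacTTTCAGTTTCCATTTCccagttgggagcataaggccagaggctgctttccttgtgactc
Apol9b, chr15:77728922-77729071 (plus strand): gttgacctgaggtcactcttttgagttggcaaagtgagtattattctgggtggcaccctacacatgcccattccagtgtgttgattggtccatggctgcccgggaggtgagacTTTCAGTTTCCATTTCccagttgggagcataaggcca
Isg15, chr4:156200819-156200968 (minus strand): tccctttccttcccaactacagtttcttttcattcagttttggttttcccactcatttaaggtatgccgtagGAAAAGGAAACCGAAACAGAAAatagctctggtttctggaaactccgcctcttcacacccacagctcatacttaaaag
Oas1a, chr5:120907526-120907675 (minus strand): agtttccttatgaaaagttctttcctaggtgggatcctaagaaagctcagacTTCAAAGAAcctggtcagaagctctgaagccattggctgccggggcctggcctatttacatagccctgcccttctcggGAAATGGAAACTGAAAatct
Gbp2, chr3:142620513-142620662 (plus strand): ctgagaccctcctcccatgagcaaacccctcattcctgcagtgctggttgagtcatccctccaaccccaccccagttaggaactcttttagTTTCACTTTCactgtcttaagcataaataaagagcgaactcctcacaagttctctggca
Gbp3, chr3:142559894-142560043 (plus strand): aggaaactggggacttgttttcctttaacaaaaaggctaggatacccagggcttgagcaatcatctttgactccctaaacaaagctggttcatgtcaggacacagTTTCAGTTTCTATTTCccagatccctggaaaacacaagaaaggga
Irf1, chr11:53769864-53770013 (plus strand): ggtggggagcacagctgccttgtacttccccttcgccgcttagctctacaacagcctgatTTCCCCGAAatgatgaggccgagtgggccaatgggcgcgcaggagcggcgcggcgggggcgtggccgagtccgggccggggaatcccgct
The first 2 lines carry the same run of capitals. The full windows of Apol9a and Apol9b share an identical run of 278 bases, so the start regions of these 2 genes cannot be told apart over most of their length. The capitals of Apol9a, Apol9b, Gbp2 and Gbp3 are the ISRE core read on the other strand. Isg15 holds 3 overlapping ISRE cores, Oas1a holds a GAS core followed by 2 overlapping ISRE cores, and the Irf1 stretch shown holds the GAS core alone. The second windows of Gbp3 and Irf1 hold neither core.

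Levels differed widely between members, from a mean over all libraries of 11.2 CPM to 877 CPM. A gene was called where edgeR gave an adjusted p under 0.05 over the 12445 genes. Of the 42 members, 11 (26.2%) were called in at least 1 of the 6 comparisons between populations, against 2453 genes (19.7%) of all tested. These 11 are 6 type I and 5 gamma-type genes. A further 2 were called only between the tissues, and 29 in neither. Each change is given on the log2 scale with its SE, from 3 libraries a group. Each call of a member went the same way in 3 of 3 mice, and the libraries of the 2 groups did not overlap. Both rest on the values that gave the call, so they are no separate support, and the share over all genes was not counted. Values per library are given in the order of mice 84, 86 and 87. Fewer cells that express a gene and less RNA in each cell cannot be told apart in libraries of pooled cells.

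**Figure D1:**
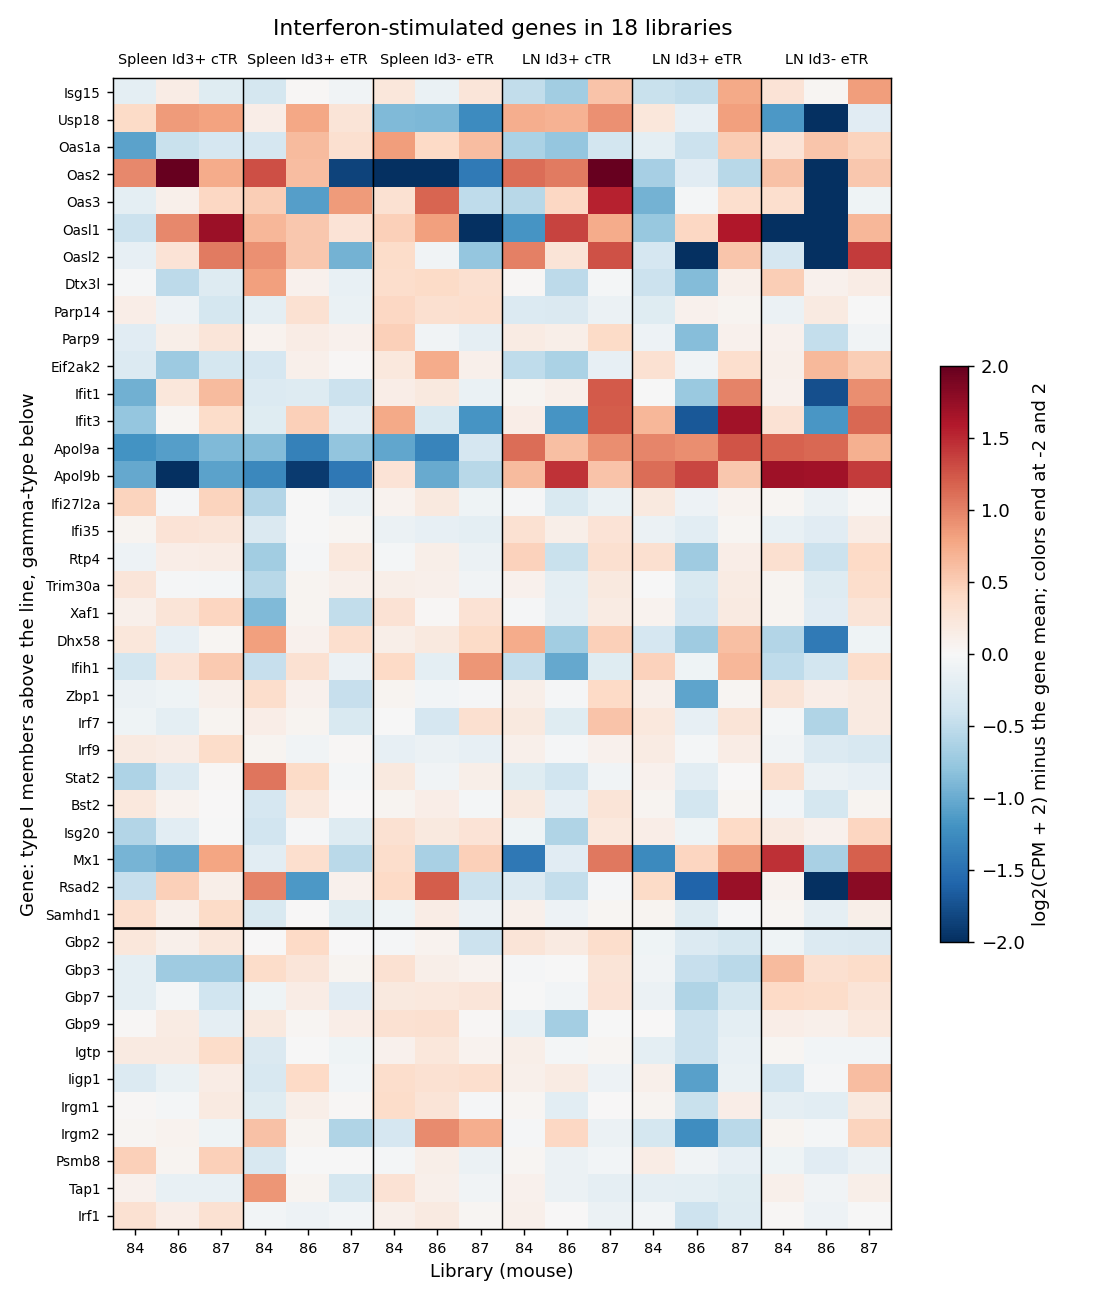
Each cell gives 1 of 42 members (rows, with 31 type I members above the black line and 11 gamma-type members below) in 1 of 18 libraries (columns, by group and mouse), as log2 of CPM plus 2, minus the mean of the gene over all libraries. Apol9a and Apol9b are high in all 9 lymph node (LN) libraries, Usp18 is low in the Id3- eTR columns, and many type I rows are highest in the lymph node columns of mouse 87.

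Id3- eTR differed from Id3+ cTR in a few antiviral genes in both directions. Oas1a and Eif2ak2 were higher in both tissues and Usp18 lower in both, while Isg15, Irf7 and Stat2 were not called. In spleen 7 of 42 members were called (4 higher, 3 lower), where 12.3% of all genes were. In lymph node 4 were called (2 higher, 2 lower), where 12.9% of all genes were. The median log2 change over the members was 0.12 in spleen and 0.03 in lymph node, against 0.00 and 0.00 over all genes.

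Usp18 encodes the protease that removes ISG15 from proteins and that also blocks signaling at IFNAR2. It stood at 207, 288 and 279 CPM in spleen Id3+ cTR, against 175, 272 and 189.6 in Id3+ eTR and 84.9, 84.8 and 65.3 in the Id3- eTR libraries. In lymph node it stood at 265, 258 and 303 in Id3+ cTR, against 187, 142 and 284 in Id3+ eTR and 70.7, 38.0 and 135 in the Id3- eTR libraries. The Id3- eTR libraries were the lowest in each tissue and overlapped with neither Id3+ population, and the highest of them was lymph node mouse 87. Against Id3+ eTR the change was -1.44 ± 0.33 in spleen and -1.33 ± 0.33 in lymph node, with an adjusted p of 0.0231 and 0.0425. It was the single member called in spleen in that comparison, where 3.28% of all genes were called. Against Id3+ cTR it was 3.3-fold lower in spleen and 3.38-fold lower in lymph node, and adjusted p stayed under 0.05 with each of the 6 libraries left out in turn (0.00361 to 0.0169 for spleen, 0.000107 to 0.0121 for lymph node). The calls against Id3+ eTR were less firm. With 1 library left out, adjusted p ran from 0.0305 to 0.11 in spleen, and the call held there only without Id3+ eTR of mouse 84 or 87. In lymph node it ran from 0.00263 to 0.223 and held only without Id3+ eTR of mouse 86 or the Id3- eTR library of mouse 87. Without the 3 libraries named above these were 0.0502 and 0.0635, and in a fit of the compared groups alone the lymph node value was 0.179. Between Id3+ eTR and Id3+ cTR Usp18 was not called (-0.29 ± 0.32 and -0.43 ± 0.32).

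Isg15, the ubiquitin-like protein that USP18 removes, was not called in any comparison. It stood at 24.1, 31.2 and 23.4 CPM in spleen Id3+ cTR and 33.1, 25.4 and 33.4 in Id3- eTR, and in lymph node at 19.3, 16.5 and 42.2 in Id3+ cTR and 34.2, 28.9 and 51.3 in Id3- eTR. The change was 0.22 ± 0.40 (adjusted p = 0.8) and 0.55 ± 0.39 (adjusted p = 0.432), with overlapping groups in both tissues. In lymph node the library of mouse 87 was the highest in each population.

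The OAS genes encode sensors of double-stranded RNA that make 2′-5′ oligoadenylates. Oas1a stood at 24.7, 39.2 and 42.5 CPM in spleen Id3+ cTR, against 42.6, 85.1 and 68.0 in Id3+ eTR and 98.2, 71.6 and 84.1 in the Id3- eTR libraries. In lymph node the values were 34.1, 30.8 and 41.5 in Id3+ cTR, against 46.8, 39.4 and 77.5 in Id3+ eTR and 66.0, 80.4 and 74.1 in the Id3- eTR libraries. Every Id3- eTR library was above every Id3+ cTR library of its tissue, and in spleen Id3+ eTR overlapped with Id3- eTR. The change from Id3+ cTR to Id3- eTR was 1.25 ± 0.29 in spleen and 1.05 ± 0.29 in lymph node, with an adjusted p of 0.00839 and 0.0214. The spleen call was lost without the Id3+ cTR library of mouse 84 (0.0509) and without the 3 libraries (0.108). The lymph node call was lost without the Id3+ cTR library of mouse 84 (0.0686) or 86 (0.0885), or Id3- eTR of mouse 86 (0.0642) or 87 (0.0531). Of the 50-base words in the longest Oas1a transcript, 57.6% also stand in Oas1g, so reads of the 2 genes may be split or mixed.

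Oas2 went the other way in spleen, at 17.6, 44.8 and 14.8 CPM in Id3+ cTR, against 22.4, 13.4 and 0.777 in Id3+ eTR and 0, 0 and 1.74 in the Id3- eTR libraries. The lymph node libraries held 19.7, 18.5 and 47.9 in Id3+ cTR, against 4.3, 6.57 and 4.85 in Id3+ eTR and 13, 0.365 and 12.5 in the Id3- eTR libraries. The 3 spleen Id3- eTR libraries held 5 counts between them, all from mouse 87, and lay under every spleen Id3+ cTR library. The change was -5.27 ± 1.26 (adjusted p = 0.01), a size that depends on the prior count at such low levels. The call was lost without Id3- eTR of mouse 84 (0.05) and with limma-voom (0.103). The lymph node change of -1.73 ± 0.96 was not called (adjusted p = 0.285). Oas3, Oasl1 and Oasl2 were not called in any comparison. Their levels were low too, with group means from 5.82 to 39.0 CPM, and Oas3 and Oasl1 had libraries at 0, so small changes could be missed.

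Eif2ak2, which encodes the RNA-activated kinase PKR that halts translation, stood at 52.0, 37.2 and 49.3 CPM in spleen Id3+ cTR, against 49.6, 67.6 and 64.1 in Id3+ eTR and 73.0, 106 and 68.1 in the Id3- eTR libraries. The lymph node libraries held 43.9, 40.0 and 56.4 in Id3+ cTR, against 78.4, 59.9 and 80.7 in Id3+ eTR and 68.0, 100.1 and 89.8 in the Id3- eTR libraries. All 6 Id3- eTR libraries were above all 6 Id3+ cTR libraries. The change was 0.84 ± 0.23 in spleen and 0.88 ± 0.23 in lymph node, with an adjusted p of 0.0237 and 0.0157, which is 1.79-fold and 1.84-fold. The spleen call was lost without Id3- eTR of mouse 86 (0.119), without Id3+ cTR of mouse 86 (0.0957) or 87 (0.0536), without the 3 libraries (0.068) and with limma-voom (0.0509). The lymph node call was lost without the Id3+ cTR library of mouse 84 (0.0587) or 86 (0.0752) or Id3- eTR of mouse 86 (0.0661).

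Of the 3 type I transcription factors of the list, Irf9 alone was called, in spleen. Irf9, which gives its complex with STAT2 the DNA contact, stood at 365, 356 and 416 CPM in spleen Id3+ cTR and 286, 297 and 288 in Id3- eTR. The lower values were all in Id3- eTR, with a change of -0.38 ± 0.09 (adjusted p = 0.00906). That call was lost without the Id3+ cTR library of mouse 87 (0.059) and without the 3 libraries (0.203). In lymph node Irf9 was at 347, 316 and 340.4 CPM in Id3+ cTR and 309, 266 and 258 in Id3- eTR, a change of -0.27 ± 0.09 that edgeR did not call (adjusted p = 0.0597, and 0.0431 without the 3 libraries). Stat2, its signaling partner, was at 51.4, 65.9 and 82.0 CPM in spleen Id3+ cTR and 169.9, 106 and 78.5 in Id3+ eTR, where the highest value belongs to the library of mouse 84 that stands apart. The Stat2 change was 0.83 ± 0.24 (adjusted p = 0.0653). Irf7, the amplifier of type I interferon production, ran from 171 ± 45.2 CPM (SD, n = 3) in lymph node Id3- eTR to 215 ± 59.9 in lymph node Id3+ cTR and was not called in any comparison. Its groups overlapped in all 6 comparisons of populations.

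The remaining type I members gave no call between Id3- eTR and Id3+ cTR. The 3 sensors of foreign nucleic acid (Ifih1, Dhx58 and Zbp1) lay between 0.03 and 0.25 in spleen, and between -0.93 and 0.44 in lymph node. Parp9, Parp14 and Dtx3l, which encode ADP-ribosylating enzymes and their ubiquitin ligase partner, ran from 0.05 to 0.62 and from -0.37 to 0.42. The 5 virus restriction genes (Mx1, Rsad2, Bst2, Samhd1 and Isg20) ran from -0.29 to 0.52 and from -0.22 to 1.02. Parp14 was just short of a call in spleen (adjusted p = 0.0525 in edgeR, 0.0471 in limma-voom and 0.0213 in DESeq2).

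Markers of other cells differed between the same groups. The 5 markers of CD8 T and NK cells summed to 71.5 to 167 CPM in spleen Id3+ cTR and 149.7 to 210.5 in Id3- eTR, and to 59.9 to 104 and 179 to 219.6 in lymph node. Nkg7 was the 1 of them called, from a mean of 41.9 to 147 CPM in spleen and 22.8 to 145 in lymph node. By mean, Cd8a and Cd8b1 were lower in spleen Id3- eTR, from 22.0 to 5.65 and 49.1 to 27.9. In lymph node Cd8b1 was lower (56.5 to 51.1) and Cd8a higher (4.22 to 6.38). Klrb1c went from 0 to 2.75 in spleen and to 1.85 in lymph node, and Ncr1 was at 0 in all 18 libraries. The 7 myeloid markers summed to 135 to 260.1 CPM in spleen Id3+ cTR and 225 to 274 in Id3- eTR, and to 139 to 163 and 302 to 349 in lymph node. Of these 7, Cd68 and Fcer1g were called higher in spleen, and Cst3 and Fcer1g in lymph node. In spleen the 3 erythroid markers summed to 114 to 192 CPM in Id3+ cTR and 7.53 to 60.5 in Id3- eTR, and Alas2 was called lower. Of the B cell markers Cd79a was called lower in spleen, at 2.60, 51.5 and 33.9 CPM in Id3+ cTR and 7.19, 1.41 and 2.09 in Id3- eTR, with overlapping groups. The part of these markers in the differences of the members was not tested.

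**Figure D2:**
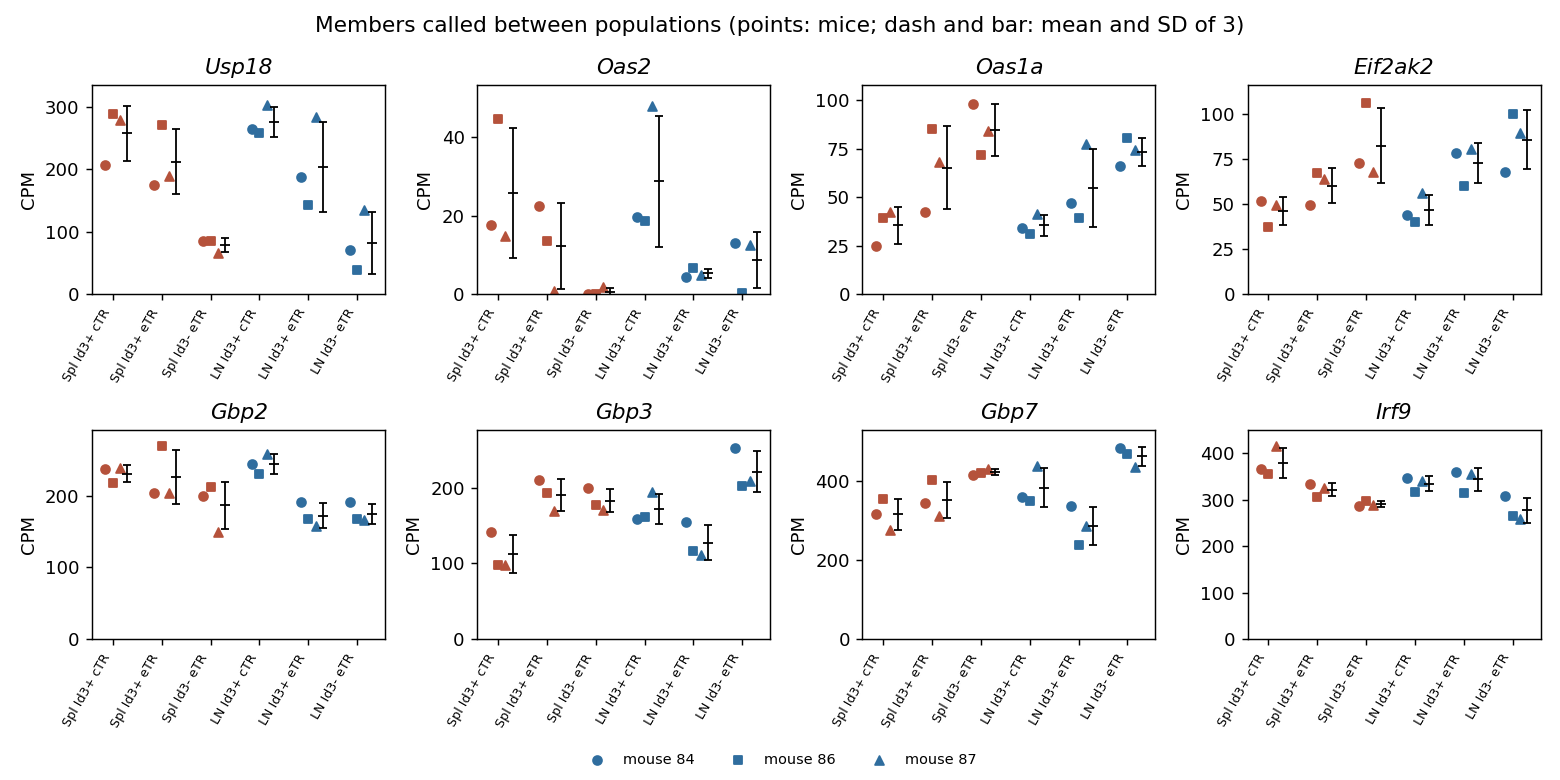
Levels in CPM (vertical axis, from 0) of 8 members called between populations, with 1 point per mouse in 6 groups (horizontal axis, spleen in red, lymph node in blue) and the mean with SD of 3 mice in black. Usp18 is lowest in Id3- eTR of both tissues, Oas1a and Eif2ak2 are highest there on average, and Gbp3 is lowest in spleen Id3+ cTR and in lymph node Id3+ eTR.

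Guanylate-binding proteins (GBP) are interferon-induced GTPases that attack the vacuoles of intracellular microbes, and their genes gave most of the gamma-type calls. Gbp3 stood at 142, 98.3 and 98.0 CPM in spleen Id3+ cTR, against 211, 193 and 169 in Id3+ eTR and 200.02, 177 and 171 in the Id3- eTR libraries. In lymph node it stood at 159, 161 and 195 in Id3+ cTR, against 154, 117 and 111 in Id3+ eTR and 252, 202 and 209 in the Id3- eTR libraries. So the low population was Id3+ cTR in spleen and Id3+ eTR in lymph node. In spleen Gbp3 was higher in Id3+ eTR by 0.77 ± 0.16 (adjusted p = 0.0132) and in Id3- eTR by 0.70 ± 0.17 (adjusted p = 0.00881), 2 comparisons that share the Id3+ cTR libraries. In lymph node Id3- eTR was above Id3+ eTR by 0.80 ± 0.16 (adjusted p = 0.0102), and Id3+ eTR was at -0.43 ± 0.16 against Id3+ cTR, which was not called (adjusted p = 0.156).

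Both spleen calls of Gbp3 were lost without the Id3+ cTR library of mouse 87 (adjusted p = 0.0803 against Id3+ eTR and 0.0522 against Id3- eTR). The first was also lost without the 3 libraries (0.134) and in a fit of the compared groups alone (0.145). The lymph node call was lost without Id3- eTR of mouse 84 (0.0675) or the Id3+ eTR library of mouse 86 (0.0616) or 87 (0.0768). The test of whether the step from Id3+ cTR to Id3+ eTR differs between the tissues gave -1.20 ± 0.23 for Gbp3 (unadjusted p = 8.11e-05, adjusted p = 0.202 in edgeR and 0.000657 in DESeq2). The step was positive in 3 of 3 mice in spleen and negative in 3 of 3 in lymph node.

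Gbp7 stood at 360.0, 349.6 and 439 CPM in lymph node Id3+ cTR, against 336, 238 and 285 in Id3+ eTR and 482, 469 and 435 in the Id3- eTR libraries. Every Id3- eTR library was above every Id3+ eTR library, with a change of 0.69 ± 0.13 (adjusted p = 0.00571) that was called with each of the 6 libraries left out in turn (0.00361 to 0.0404). Usp18, Gbp3 and Gbp7 were the 3 of 42 members called in that comparison (2 higher, 1 lower), where 2.62% of all genes were called. In spleen Gbp7 was at 317, 354 and 276 CPM in Id3+ cTR and 416, 421 and 431 in Id3- eTR, a change of 0.42 ± 0.13 (adjusted p = 0.044). That call was weak. It was lost with mouse as a block (0.0619), with limma-voom (0.0567), without the 3 libraries (0.547) and without any library of the 2 groups but Id3+ cTR of mouse 86 (0.0255 to 0.194 over the 6).

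Gbp2 was lower in both effector populations of lymph node, at 244, 229.8 and 259 CPM in Id3+ cTR, against 192, 167 and 158 in Id3+ eTR and 191, 167 and 166 in the Id3- eTR libraries. The changes were -0.51 ± 0.14 (adjusted p = 0.036) and -0.49 ± 0.14 (adjusted p = 0.0249), and the 2 comparisons share the Id3+ cTR libraries. Gbp2 was the 1 member called between Id3+ eTR and Id3+ cTR in lymph node, where 5.66% of all genes were called. With single libraries left out, adjusted p ran from 0.041 to 0.149 in the first and held only without Id3+ eTR of mouse 84. In the second it ran from 0.0341 to 0.0934 and held only without Id3- eTR of mouse 84 or the Id3+ cTR library of mouse 86. In spleen Gbp2 stood at 237, 217 and 238 in Id3+ cTR, against 204, 269 and 204 in Id3+ eTR and 199, 212 and 149 in the Id3- eTR libraries, and it was not called. Gbp2 and Gbp3 thus lay on opposite sides of Id3+ cTR in lymph node Id3- eTR, at -0.49 ± 0.14 and 0.37 ± 0.16, the second not called (adjusted p = 0.16). Gbp9 was not called in any comparison.

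In spleen 4 of 42 members were called between Id3+ eTR and Id3+ cTR (1 higher, 3 lower), where 4.32% of all genes were called. Gbp3 was the higher one. Samhd1, which encodes an enzyme that degrades nucleotides and restricts viruses, was lower by 1.37-fold, from 1101, 929 and 1137 CPM to 699.9, 872 and 738 (-0.46 ± 0.12, adjusted p = 0.0349). Igtp, an immunity-related GTPase (IRG), was lower by 1.3-fold, from 482, 479 and 549 to 347, 419 and 398 CPM (-0.38 ± 0.10, adjusted p = 0.0326). Psmb8, a subunit of the immunoproteasome, was lower by 1.37-fold, from 469, 350.4 and 469 to 268, 334 and 335 CPM (-0.46 ± 0.12, adjusted p = 0.043). In each of these 3 genes the libraries of the 2 groups did not overlap, though for Psmb8 the gap between them was narrow.

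The 3 lower calls did not hold in many alternatives. With mouse as a block adjusted p was 0.0555 for Samhd1, 0.0526 for Igtp and 0.0658 for Psmb8, which left 1 member called in place of 4. Each was lost without Id3+ eTR of mouse 84 (0.142, 0.131 and 0.175) or 87 (0.0893, 0.0593 and 0.0526), or without Id3+ cTR of mouse 84 (0.129, 0.0624 and 0.176) or 87 (0.151, 0.162 and 0.185). Each was also lost without all 3 libraries, a fit that leaves 1 spleen Id3+ cTR library. With the compared groups alone adjusted p was 0.162 for Samhd1, 0.212 for Igtp and 0.222 for Psmb8. In that edgeR fit 0 members were called in this comparison, with 9 at an unadjusted p under 0.05. The shares of all genes called there and with mouse as a block are not given here. In lymph node, with every library in the fit, the values of the 3 genes were -0.09 ± 0.12, -0.30 ± 0.10 and 0.02 ± 0.12, and edgeR called none. There Igtp was called by DESeq2 (0.0461) and by edgeR without the 3 libraries (0.0481). The 3 erythroid markers summed to 114 to 192 CPM in spleen Id3+ cTR and 5.44 to 85.1 in Id3+ eTR, and their part in these calls was not tested. Irf1, the transcription factor that carries the interferon gamma response to ISRE promoters, stood at 622, 554 and 624 CPM in spleen Id3+ cTR and 483, 467 and 484 in Id3+ eTR. Its change of -0.33 ± 0.09 was just short of a call (adjusted p = 0.0507 in edgeR, 0.00995 in DESeq2), and in lymph node it was -0.23 ± 0.09 (adjusted p = 0.172).

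As lists, the type I and gamma-type members parted in comparisons that use lymph node Id3+ eTR. In lymph node 9 of 11 gamma-type members were lower in Id3+ eTR than in Id3+ cTR by value, with a median of -0.30 and 6 of 11 (54.5%) at an unadjusted p under 0.05, against 16.5% of all genes. Against Id3+ eTR, 10 of 11 were higher in Id3- eTR, with a median of 0.26 and again 6 of 11 at an unadjusted p under 0.05, against 13.1% of all genes. The 2 comparisons share the Id3+ eTR libraries, which were low for gamma-type members, so these counts are not independent. The 11 gamma-type members summed to 2996, 2335 and 2698 CPM in lymph node Id3+ eTR, against 3254, 2994 and 3185 in Id3+ cTR and 3293, 3083 and 3386 in Id3- eTR. The Id3+ eTR library was the lowest of the 3 populations in 3 of 3 mice. Of the 31 type I members 15 and 18 were above 0 in the same comparisons, with 5 of 31 and 3 of 31 at an unadjusted p under 0.05. In the same libraries 7 myeloid markers summed to 210.2 to 419 CPM in Id3+ eTR, 139 to 163 in Id3+ cTR and 302 to 349 in Id3- eTR. By mean, Lyz2 stood at 148 CPM in Id3+ eTR against 10.4 in Id3+ cTR, and Cst3 at 166 against 132. Cd68, Fcer1g and Csf1r were also higher in Id3+ eTR, while Itgam and Adgre1 were lower, all at low levels. The part of these markers was not tested.

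Mouse by mouse, the median change of the type I members minus that of the gamma-type members was -0.27 ± 0.13 (SD, n = 3 mice) between Id3- eTR and Id3+ eTR of lymph node, from -0.35 to -0.12. Between Id3+ eTR and Id3+ cTR of lymph node it was 0.19 ± 0.07, from 0.12 to 0.26. Between lymph node and spleen in Id3+ eTR it was 0.32 ± 0.27, from 0.15 to 0.63. These 3 differences had 1 sign in 3 of 3 mice, and all 3 use lymph node Id3+ eTR. Between the tissues in Id3- eTR the sign was also the same in 3 of 3 mice, at 0.07 ± 0.11, less than its spread. In the 5 other comparisons the sign differed between mice. No test was run on the lists.

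**Figure D3:**
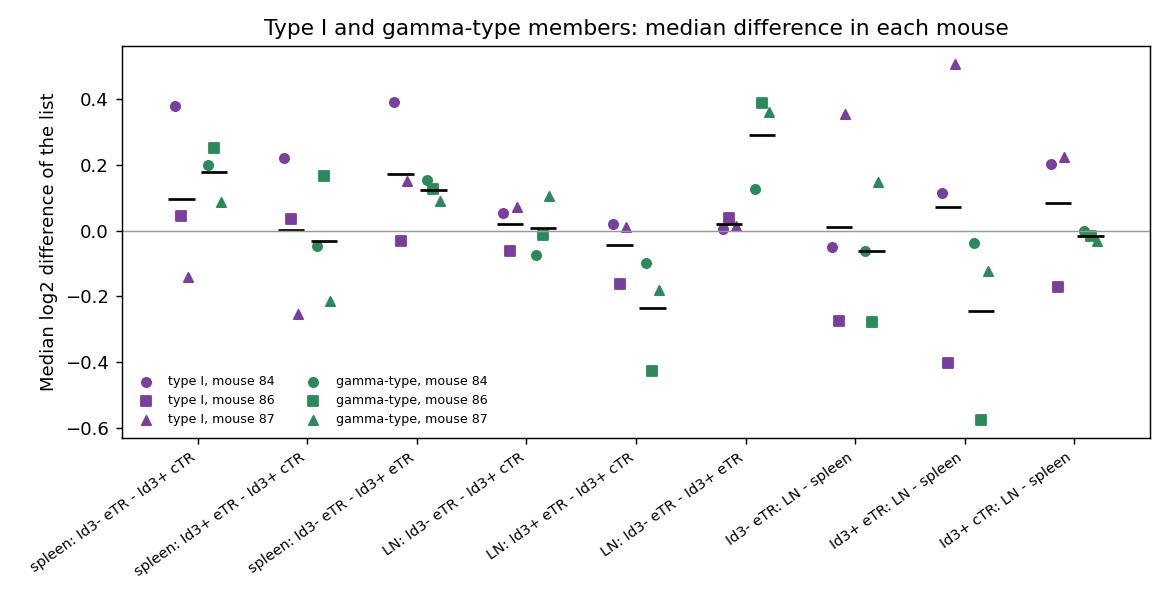
Median log2 difference over 31 type I members (purple) and 11 gamma-type members (green) in each of 3 mice (symbols), with their mean as a dash, for 9 comparisons along the horizontal axis. In the comparison of lymph node Id3- eTR with Id3+ eTR the 3 gamma-type points lie between 0.13 and 0.39 and the type I points near 0, while the points of spleen comparisons overlap.

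The calls between lymph node and spleen were those of the Apol9 genes, interferon-induced members of the apolipoprotein L family. Apol9a stood at 13, 14.0 and 16.6 CPM in spleen Id3+ cTR, against 16.8, 11.4 and 17.9 in Id3+ eTR and 14.7, 11.8 and 25 in the Id3- eTR libraries. In lymph node it stood at 71.9, 49.9 and 63.2 in Id3+ cTR, against 65.5, 63.4 and 80.0 in Id3+ eTR and 75.9, 74.2 and 53.8 in the Id3- eTR libraries. All 9 lymph node libraries were above all 9 spleen libraries. The difference between lymph node and spleen was 2.08 ± 0.29 in Id3+ cTR (adjusted p = 0.0206), 2.18 ± 0.28 in Id3+ eTR (adjusted p = 0.00169) and 1.97 ± 0.28 in Id3- eTR (adjusted p = 0.00538), which is 4.23-fold, 4.52-fold and 3.92-fold. In Id3+ cTR it was the only gene of 12445 that was called, which is 0.00804% of them.

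Apol9b, its near copy, stood at 3.25, 0 and 3.08 CPM in spleen Id3+ cTR, against 2.35, 0.814 and 1.94 in Id3+ eTR and 10.8, 3.3 and 5.21 in the Id3- eTR libraries. The lymph node libraries held 14.4, 26.8 and 13.8 in Id3+ cTR, against 21.0, 24.7 and 13.5 in Id3+ eTR and 32.2, 32.1 and 26 in the Id3- eTR libraries. Its 9 lymph node libraries too were above the 9 spleen libraries. The differences were 3.22 ± 0.71, 3.48 ± 0.69 and 2.21 ± 0.61, of which that in Id3+ eTR was called (adjusted p = 0.0464) and the others were not (0.245 and 0.191). Between Id3- eTR and Id3+ cTR of spleen Apol9b was not called (adjusted p = 0.146). Without the 3 libraries the change was 7.11, but this fit leaves 1 spleen Id3+ cTR library. That library, of mouse 86, stood at 0 CPM for Apol9b, so the size rests on this value. So 2 of 42 members were called in Id3+ eTR, where 0.289% of all genes were, and 1 in Id3- eTR, where 0.305% were.

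Averaged over the 3 populations, a comparison added after the data were seen, Apol9a differed by 2.08 ± 0.16 (adjusted p = 3.57e-06) and Apol9b by 2.97 ± 0.39 (adjusted p = 0.00112). These were the 2 members called, where 0.924% of all genes were. Apol9a had the second smallest p of all genes there, after Itga4, an integrin subunit of T cell homing. With each of the 18 libraries left out in turn adjusted p ran from 1.04e-06 to 3.79e-05 for Apol9a and 0.000396 to 0.00347 for Apol9b.

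Of the 50-base words of the Apol9b transcript 51.4% also stand in Apol9a, so reads may have been assigned to either gene. With the counts of both genes summed, the difference was 2.27 ± 0.26 in Id3+ cTR (adjusted p = 0.00139), 2.38 ± 0.25 in Id3+ eTR (0.000292) and 2.04 ± 0.24 in Id3- eTR (0.00101). Taken alone, the Apol9a call in Id3+ cTR was lost without spleen Id3+ cTR of mouse 84 (0.147) or 87 (0.109), without lymph node Id3+ cTR of mouse 84 (0.0862) or 87 (0.119), without the 3 libraries (0.276) and with limma-voom (0.228). In Id3+ eTR and Id3- eTR it held with any 1 library left out (0.00687 to 0.0239 and 0.00241 to 0.0356) and was lost in fits of the compared groups alone (0.0902 and 0.0936). The Apol9b call in Id3+ eTR was lost without any 1 of the 6 libraries (0.0707 to 0.165), without the 3 libraries (0.0591), with limma-voom (0.0731), when only the compared groups were fitted (0.144) and with a block for mouse (0.0567), which leaves 1 member called in place of 2.

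The summed markers of myeloid cells were not even between the tissues in effector TR, though single markers went both ways. The 7 listed genes (Adgre1, Cd68, Csf1r, Cst3, Fcer1g, Itgam and Lyz2), 4 of which passed the filter and none of which was called between tissues, summed to 143 to 238 CPM in spleen Id3+ eTR and 210.2 to 419 in lymph node. In Id3- eTR the sums were 225 to 274 and 302 to 349. In Id3+ cTR they were 135 to 260.1 in spleen and 139 to 163 in lymph node. The 3 erythroid markers (Hba-a1, Hbb-bs and Alas2) were higher in spleen Id3+ cTR, with sums of 114 to 192 CPM against 1.14 to 7.28 in lymph node. In Id3+ eTR the sums were 5.44 to 85.1 in spleen and 3.81 to 5.80 in lymph node. In Id3- eTR they were 7.53 to 60.5 and 1.78 to 9.50, so both effector populations overlapped between the tissues. Alas2 alone of the 3 had a lower mean in spleen Id3- eTR (2.01 CPM) than in lymph node (5.20). The part of both sets in the tissue differences was not tested.

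**Figure D4:**
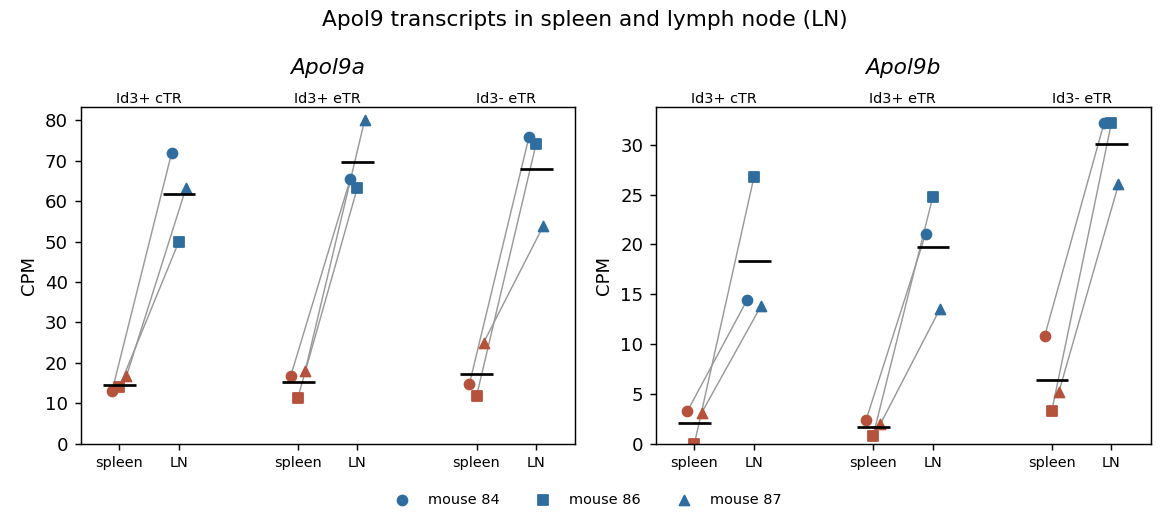
Levels in CPM (vertical axes, from 0) of Apol9a (left) and Apol9b (right) in spleen (red) and lymph node (blue) for 3 populations, with 1 symbol per mouse, lines that join the libraries of a mouse and the mean of 3 mice as a black dash. All 9 lymph node points of Apol9a lie between 49.9 and 80.0, above the 9 spleen points, and no Apol9b point of spleen reaches the lowest of lymph node.

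The other 40 members held in the tables gave no call between the tissues in edgeR. Over all 42 the median difference was 0.06 for Id3+ cTR, -0.04 for Id3+ eTR and -0.06 for Id3- eTR, and near 0 in each over all genes. Gamma-type members leaned to spleen in Id3+ eTR, where 10 of 11 were below 0 with a median of -0.33 and 5 of 11 (45.5%) at an unadjusted p under 0.05, against 11.9% of all genes. None was called in edgeR, and of these 11 DESeq2 called Gbp3 alone (-0.59 ± 0.16 in edgeR, adjusted p = 0.163, and 0.0432 in DESeq2). In Id3+ cTR 5 of 11 gamma-type members were below that p as well, in both directions, with changes from -0.39 to 0.61 and 5 of 11 above 0, and DESeq2 called Psmb8 (0.0315). Oas2 was 3.68 ± 1.27 in Id3- eTR with overlapping groups (adjusted p = 0.381). Usp18 was not called, at 0.09 ± 0.32, -0.05 ± 0.32 and 0.06 ± 0.34 in Id3+ cTR, Id3+ eTR and Id3- eTR.

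Whether a step between populations differs between the tissues was tested by interaction terms, and 0 of 42 members were called by edgeR or limma-voom. The background was 0.0241% of all genes for Id3- eTR against Id3+ cTR, 0% for Id3+ eTR against Id3+ cTR and 0% for Id3- eTR against Id3+ eTR. At an unadjusted p under 0.05 there were 1, 10 and 4 members, against 6.88%, 9.48% and 6.03% of all genes. DESeq2 called Gbp3 in the second and no member in the others. The 10 members of the second include Gbp3 (-1.20 ± 0.23) and Gbp7 (-0.58 ± 0.18, adjusted p = 0.39). In the third, Oas2 was at 4.89 ± 1.62 (adjusted p = 0.588), with its low counts in spleen Id3- eTR.

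Fewer members had their highest mean in Id3+ eTR than in either other population. In spleen 17 of 42 peaked in Id3+ cTR, 6 (14.3%) peaked in Id3+ eTR and 19 peaked in Id3- eTR, where all genes split 33.7%, 32.9% and 33.4%. In lymph node these were 16, 8 (19.0%) and 18, against 36.6%, 27.3% and 36.1%. Id3+ eTR was the highest for 4 type I and 2 gamma-type members in spleen and for 7 and 1 in lymph node.

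The summed level of the type I members put the mice in the same order in every lymph node population. The 31 type I members summed to 4071, 3440 and 4533 CPM in Id3+ cTR of mice 84, 86 and 87, to 3899, 3080 and 4460 in Id3+ eTR and to 3868, 3172 and 4301 in Id3- eTR. Mouse 87 was highest and mouse 86 lowest in each of the 3 populations. Mouse 87 held the highest value for 21, 21 and 17 of 31 type I members in these groups, where it did so for 30.9%, 31.9% and 32.9% of all genes. In spleen it did so for 18 of 31 members of Id3+ cTR, 5 of Id3+ eTR and 8 of Id3- eTR. The shares of all genes there were 31.0%, 29.4% and 30.7%. So the order of the mice was not the same in both tissues. Gamma-type members in lymph node were highest in mouse 84 for 5, 9 and 6 of 11, against 37.3%, 35.5% and 34.5% of all genes. They were highest in mouse 87 for 4, 2 and 5 of 11. Mouse 86 was highest for 2, 0 and 0, against 31.8%, 32.6% and 32.5% of all genes.

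Examples chosen after their values were seen are Ifit1 and Ifit3, which encode binders of foreign RNA ends, and Mx1, an antiviral GTPase. Ifit1 stood at 84.8, 87.3 and 194 CPM in lymph node Id3+ cTR, against 81.2, 47.9 and 164 in Id3+ eTR and 86.5, 22.6 and 158 in the Id3- eTR libraries, with mouse 87 highest each time. Ifit3 stood at 40.9, 15.2 and 88.0 in Id3+ cTR, against 59.7, 10.05 and 124 in Id3+ eTR and 45.6, 15.3 and 84.8 in the Id3- eTR libraries, in the same order of mice 87, 84 and 86 in each group. Of the 50-base words of Ifit3, 51.2% also stand in Ifit3b. Mx1 stood at 4.92, 13.9 and 36.9 in Id3+ cTR, against 5.73, 23.2 and 31.9 in Id3+ eTR and 49.5, 9.86 and 40.6 in the Id3- eTR libraries, where mouse 87 was highest in the first 2 groups and mouse 84 in the third. In spleen Ifit1 ran at 41.0, 96.3 and 127 in Id3+ cTR, against 67.0, 67.6 and 59.8 in Id3+ eTR and 89.6, 94.2 and 74.4 in the Id3- eTR libraries, with no common order. A fit with mouse as a term called 0 of 42 members for the mouse in edgeR, where 0.0241% of all genes were called, and 8 of 42 (19.0%) had an unadjusted p under 0.05, against 5.36% of all genes. DESeq2 was not run on that term, and the results of limma-voom, RLE scaling and no filter on low counts are not given here. The 8 were Dhx58, Irf7, Ifih1, Isg15 and Ifit1, higher in mouse 87 than in mouse 84 by 0.12 to 0.74, and Tap1, Gbp3 and Dtx3l, lower in mouse 87 at -0.36, -0.25 and -0.18. The test joins mice 86 and 87, and mouse 86 was at -0.64, -0.31, -0.01, -0.004 and -0.14 for the first 5 genes. It was at -0.29, -0.26 and -0.44 for Tap1, Gbp3 and Dtx3l. Dhx58, Irf7 and Dtx3l thus differed more from mouse 84 in mouse 86 than in mouse 87. They are named after their values were seen. The labels give no batch, so a mouse and anything handled with it cannot be told apart.

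The receptors and signaling genes of both pathways were described by a list of 24 genes, of which 23 were tested and Ifnb1 had no counts. It gave 5 calls in each tissue between Id3- eTR and Id3+ cTR, with 2 higher and 3 lower in each (21.7% of 23, against 12.3% of all genes in spleen and 12.9% in lymph node). Between Id3+ eTR and Id3+ cTR 3 were called in spleen and 1 in lymph node, where 4.32% and 5.66% of all genes were. Between Id3- eTR and Id3+ eTR 2 and 1 were called, where 3.28% and 2.62% of all genes were. Averaged over the populations, 1 was called between the tissues, where 0.924% of all genes were. Ifng, the gene of interferon gamma itself, stood at 0, 7.59 and 15.4 CPM in spleen Id3+ cTR, against 43.9, 65.9 and 49.4 in Id3+ eTR and 122, 167 and 137 in the Id3- eTR libraries. Lymph node libraries of Id3+ cTR held 0.379, 3.64 and 0, those of Id3+ eTR 95.6, 51.4 and 55.7 and those of Id3- eTR 64.1, 73.4 and 103. Both effector populations were above Id3+ cTR in every library of each tissue. In lymph node the 5 markers of CD8 T and NK cells summed to 59.9 to 104 CPM in central TR libraries, against 152 to 238 in those of Id3+ eTR, with Nkg7 called higher (2.55 ± 0.35, adjusted p = 0.000206). By group mean Cd8a (22.5 against 4.22 CPM) and Klrb1c (3.91 against 0) were also higher in Id3+ eTR, and Cd8b1 was lower (45.5 against 56.5). In spleen the 5 markers summed to 71.5 to 167 CPM in Id3+ cTR and 97.7 to 128 in Id3+ eTR. Spleen libraries of Id3- eTR held 149.7 to 210.5. The means of Nkg7 in these 3 spleen populations were 41.9, 46.6 and 147 CPM in that order. The part of these markers in the Ifng differences was not tested. In spleen the change from Id3+ cTR was 2.77 ± 0.63 for Id3+ eTR (adjusted p = 0.0176) and 4.18 ± 0.63 for Id3- eTR (adjusted p = 0.000237). Lymph node gave 5.54 ± 0.75 (adjusted p = 0.000183) and 5.79 ± 0.75 (adjusted p = 4.3e-05) in that order. The spleen call of Id3+ eTR was lost without the Id3+ cTR library of mouse 86 (0.0515), without the 3 libraries (0.135), with limma-voom (0.055) and in a fit of the compared groups alone (0.139).

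In spleen the chains of the gamma receptor moved in opposite directions. Ifngr2, the signaling chain, stood at 144, 113 and 112 CPM in spleen Id3+ cTR and 38.9, 54.6 and 42.1 in Id3- eTR, and in lymph node at 112, 136 and 144 in Id3+ cTR and 61.3, 23.0 and 59.2 in Id3- eTR. It was lower in Id3- eTR by 2.73-fold in spleen (-1.45 ± 0.31, adjusted p = 0.00414, and 0.0958 without the 3 libraries) and 2.73-fold in lymph node (-1.45 ± 0.30, adjusted p = 0.00365). Ifngr1, the ligand-binding chain, was higher in spleen Id3- eTR, at 498, 539 and 522 CPM, than in Id3+ cTR, at 368, 402 and 409 (0.40 ± 0.08, adjusted p = 0.00261, and 0.0674 without the 3 libraries). It was also higher there than in Id3+ eTR (0.36 ± 0.08, adjusted p = 0.0173), a call lost without Id3- eTR of mouse 86 (0.0776) or 87 (0.0642) and when only these groups were fitted (0.187). In lymph node its change between Id3- eTR and Id3+ cTR was 0.10 ± 0.08, which was not called (adjusted p = 0.513). Averaged over populations Ifngr1 was lower in lymph node by 1.18-fold (-0.24 ± 0.05, adjusted p = 0.016).

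The 2 genes of the type I receptor gave no call. Ifnar1 had a mean of 341 ± 11.7 CPM (SD, n = 3 mice) in spleen Id3+ cTR and 236 ± 29.3 in Id3- eTR (-0.53 ± 0.21, adjusted p = 0.112), and in lymph node of 275 ± 74.3 in Id3+ cTR and 197 ± 10.1 in Id3- eTR (-0.48 ± 0.21, adjusted p = 0.15). For Ifnar2 the values in spleen and lymph node were -0.11 ± 0.14 and -0.11 ± 0.14.

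Among the kinases, Jak2, the kinase bound to IFNGR2, was higher in lymph node Id3- eTR than in Id3+ cTR, from 167, 198 and 114 CPM to 306, 295 and 287 (0.89 ± 0.16, adjusted p = 0.0012). In spleen its change was 0.50 ± 0.16 (adjusted p = 0.0557). Jak1, the kinase of both pathways, was lower in spleen Id3- eTR than in Id3+ cTR, with a change of -0.53 ± 0.07 (adjusted p = 4.94e-05), and this held with each library left out (2.59e-05 to 0.000694). The 3 smaller calls of Jak1 were lost with mouse as a block: spleen Id3+ eTR against Id3+ cTR (-0.27 ± 0.07, adjusted p = 0.0319, 0.0569 blocked), spleen Id3- eTR against Id3+ eTR (-0.26 ± 0.07, 0.0481, 0.0785 blocked) and lymph node Id3- eTR against Id3+ cTR (-0.23 ± 0.07, 0.0392, 0.0609 blocked). Without the 3 libraries the 2 spleen values were 0.653 and 0.0611, and with the compared groups alone 0.293 and 0.34. With no filter on low counts the values were 0.0816, 0.108 and 0.114, and RLE scaling lost the second (0.058) and the third (0.0577). With single libraries left out adjusted p ran from 0.0111 to 0.14 in the first, which held only without Id3+ cTR of mouse 86, from 0.0189 to 0.189 in the second, which held only without Id3- eTR of mouse 86, and from 0.0709 to 0.134 in the third, which was lost each time.

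Ptpn6, which encodes the phosphatase SHP-1 that dampens JAK signals, fell from 433, 426 and 448 CPM in lymph node Id3+ cTR to 299, 282 and 251 in Id3- eTR (-0.65 ± 0.12, adjusted p = 0.00168). It was also lower in lymph node Id3- eTR than in Id3+ eTR (-0.55 ± 0.12, adjusted p = 0.023) and in spleen Id3- eTR than in Id3+ cTR (-0.51 ± 0.13, adjusted p = 0.011). The second was lost without Id3+ eTR of mouse 84 (0.11) or 86 (0.0506) or the Id3- eTR library of mouse 86 (0.0717) or 87 (0.119). The third was lost without Id3- eTR (0.0686) or Id3+ cTR (0.074) of mouse 87 and without the 3 libraries (0.0532). Irf2, a relative of IRF1 that competes for the same sites, was lower in spleen Id3+ eTR than in Id3+ cTR (-0.45 ± 0.11, adjusted p = 0.0349). That call held without Id3+ eTR of mouse 86 alone (0.036 to 0.123 over the 6 libraries). It was lost without the 3 libraries (0.479), with the compared groups alone (0.209), with no filter on low counts (0.0734) and in limma-voom (0.0562).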

How the data were processed

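RNA of 18 libraries (500 sorted cells each, SMART-Seq v4 and Nextera XT, per the labels' protocols) was measured by sequencing. The authors deposited a table of raw read counts per gene and a table of normalized counts, a signal scale in which 748 of 748 nonzero member values equal the count times 1 factor per library within 0.1%. Among the tools listed in the submitters' processing notes are HTSeq 0.4.1, SAMtools, Picard, FastQC, TopHat and Bowtie. The genome build and annotation of the counts are not given in the sources used here. Gene identifiers were paired with symbols for 32919 of the rows, and 5072 rows with no symbol held 0.891% of counts.

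The deposited counts were tested with edgeR 4.0.16 (R 4.3.3), by a robust two-sided quasi-likelihood F test in 1 fit of all 6 groups with TMM scaling, a filter (filterByExpr, minimum count 10) that left 12445 genes, and Benjamini-Hochberg adjustment over them. CPM (counts over TMM-scaled library totals) were computed in edgeR. DESeq2 1.42.0, limma-voom (limma 3.58.1), RLE scaling, no filter, the compared groups alone, mouse as a block and leaving out each library were alternatives. The averaged tissue comparison and the summed Apol9 counts were added after the data were seen. Figures were drawn with matplotlib 3.10.9. The scripts were tested on simulated data.

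Groups came from the labels, and the libraries of 1 number come from the same mouse, which makes the design paired. Deviations from group means of libraries of the same mouse had a median correlation of 0.0188 over 45 pairs, 0 of them above 0.1, and of libraries of different mice -0.00673 over 90. Libraries of a group come from separate mice, which are 3 littermates. The main p-values rest on a spread estimated over all 6 groups (12 residual degrees of freedom), with libraries of 1 mouse treated as independent. Totals of 1600782 to 3153325 counts gave a median SE of 0.313 on the log2 scale. Members and lists were chosen with earlier results of these data known. Named members are those called in any comparison of populations, tissues or their interactions, plus Stat2, Irf1, Irf7, Irf9, Isg15 and Usp18. Of the pathway list the called genes and Ifnar1, Ifnar2, Ifngr1, Ifngr2 and Ifng are named. Marker lists were read for CD8 T and NK, myeloid, erythroid, plasmacytoid dendritic, B and TR cells. Of the B cell list Cd79b stood at 52.7 to 130.5 CPM. Sequence shared between genes was counted over 50-base words of GENCODE M21 transcripts.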

Additional observations from a re-analysis of the deposited data

How the results depend on the processing

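Of 363 alternative values of called members, 267 kept their side of the threshold, 96 lost the call and 0 reversed. Counts of called members moved as follows, and the cause was not tested. The share of all genes called in each setting is not given beside them. So a moved count cannot be told from more or fewer calls over all genes. In spleen, Id3- eTR against Id3+ cTR gave 7 members, with 4 without the 3 libraries (the one that stands apart and the 2 smallest) and 9 with the compared groups alone. Id3+ eTR against Id3+ cTR gave 4 members, with 2 by limma-voom, 1 with mouse as a block, 7 by DESeq2, 0 without the 3 libraries and 0 with the compared groups alone. Id3- eTR against Id3+ eTR gave 1 member, with 2 by DESeq2 and 0 without the 3 libraries. In lymph node, Id3+ eTR against Id3+ cTR gave 1 member, with 2 by limma-voom, 3 by DESeq2, 2 without the 3 libraries and 2 with the compared groups alone. Between tissues, Id3- eTR gave 1 member, with 2 by DESeq2 and 0 with the compared groups alone. Id3+ eTR gave 2 members, with 1 each by limma-voom, with the mouse block and without the 3 libraries, and 0 with the compared groups alone. Id3+ cTR gave 1 member, with 0 by limma-voom and 0 without the 3 libraries. The interaction of Id3+ eTR against Id3+ cTR gave 0, with 1 by DESeq2. The settings run gave 4 to 5 members (4 as reported) for Id3- eTR against Id3+ cTR and 2 to 4 (3 as reported) for Id3- eTR against Id3+ eTR in lymph node, and 2 to 3 (2 as reported) for the averaged tissue comparison.

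With each library left out in turn, the member counts lay between 3 and 7, between 0 and 6 and between 0 and 2 for the 3 spleen comparisons in that order, and from 1 to 5 (Id3- eTR against Id3+ cTR), 0 to 2 (Id3+ eTR against Id3+ cTR) and 1 to 3 (Id3- eTR against Id3+ eTR) in lymph node. Between tissues they stayed at 1 for Id3- eTR, fell to 1 for Id3+ eTR without any 1 of the 6 libraries compared, lay between 0 and 1 for Id3+ cTR, and stayed at 2 averaged. The interactions stayed at 0. As above, the share of all genes called in each of these fits is not given here. So a moved count here too cannot be told from more or fewer calls over all genes. The mouse block changed no other call than those given beside the results. The type I minus gamma-type differences moved by less than their spread under the 3 other settings run (another prior, members at 16 CPM or more, RLE scaling). With 1 spleen Id3+ cTR library left after the 3 were dropped, its spread was taken from the other groups. Depth limits Oas2, Oasl1 and Apol9b, which each had 0 counts in at least 1 spleen library. It also limits Oas3, which had 0 counts in at least 1 library of lymph node Id3- eTR, as Oasl1 did.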
